A study of Mus musculus with 2 samples.

Results

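The 38 genes described here encode nucleolar factors that make, cut and modify pre-rRNA and assemble it with ribosomal proteins. They were chosen by a fixed list of symbols, and all 38 were found among the 27998 genes in the tables of both libraries. The list was drawn up with earlier results of these data known. Ribosomal RNA is transcribed in the nucleolus as a long precursor, which guide snoRNPs modify and a large processome folds and cuts before the small and large subunits mature along separate paths. Growth signals and cell division raise this output, and haematopoietic stem cells are known for a low rate of protein synthesis that has to be kept within limits.

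The series holds 2 droplet single-cell RNA libraries of sorted bone marrow cells without lineage markers and with surface Sca-1 and c-Kit (LSK cells), a fraction of stem cells and multipotent progenitors, from C57BL/6 mice aged 3 months. The labels give the WT library the genotype Trmt6fl/fl and the cKO library the genotype Trmt6fl/fl, MX1-cre, whereas the study's account of this experiment sets Trmt6+/+ Mx1-Cre beside Trmt6fl/fl Mx1-Cre mice and its methods name Trmt6fl/+ Mx1-Cre mice from the cross. Mx1-Cre is switched on by interferon in blood and other cells, and per that account the mice were given pIpC, an interferon inducer. Trmt6 encodes the non-catalytic subunit of the enzyme that methylates adenosine 58 of tRNAs. The number of mice behind each library is not given in the sources used here. With 1 library per genotype no difference could be tested across animals, so "higher" and "lower" below compare these libraries, and genotype, animal, sort and library cannot be told apart. Levels come from tags at the 3′ end and are not scaled to gene length, so genes are compared by their ratios and not by their levels. All ranges in parentheses are 95% intervals of UMI counting and cover counting error only.

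The libraries differed in more than genotype. Quality limits and a doublet filter left 8147 cells in WT and 8481 in cKO, with medians of 4158 and 10068 UMIs per cell, and 22 barcodes occurred in both sets. Trmt6 itself stood at 63.4 and 49.9 UMIs per 1000000 UMIs (CPM), but the study draws the loxP sites around an exon near the 5′ end, so these tags from the 3′ end lie outside the deleted stretch and do not check the labels. The 10 granulocyte-monocyte markers summed to 6839 CPM in WT and 758 CPM in cKO, with all 10 lower, and the 10 neutrophil markers to 5531 and 8.13 CPM, with all 10 lower and 2 at 0 in cKO. The 11 stem cell markers summed to 251 and 327 CPM, 8 being higher and 2 lower, and the 10 lymphoid-primed markers to 594 and 258 CPM, 7 being lower and 2 higher. The 12 megakaryocyte markers summed to 224 and 72.2 CPM, 9 being lower, and the 8 basophil or mast cell markers to 208 and 82.3 CPM, 4 being lower and 3 higher. The 20 immediate early genes, which cells raise during handling, summed to 5828 and 1306 CPM, with all 20 lower and 1 at 0 in cKO. Of the genes of the sort, Kit stood at 63.7 and 21.5 CPM and Ly6a, which encodes Sca-1, at 34.4 and 141 CPM. The 7 lineage markers summed to 13.6 and 3.14 CPM, 2 being at 0 in WT and 1 in cKO. The part of these shifts in the results below was not tested. Gates and cell cycle states were examined one by one and as a mix.

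MYC, a driver of growth and of rRNA synthesis, binds the E-box CACGTG, so this palindrome, which reads the same on both strands, was searched in the promoters of the members. RefSeq windows on GRCm38.p6, reaching from 250 bases before to 50 bases after the annotated start, were found for 32 members. Npm1, Tcof1, Fbl, Rrp12, Bop1 and Rrs1 had no window and were not searched. Only Nop2, which encodes an rRNA methyltransferase of the large subunit path, held CACGTG before its start, beginning 60 bases upstream. The 250 bases upstream of Nop2 lie at chr6:125131633-125131882 on the plus strand, with the palindrome in capitals.

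Nop2: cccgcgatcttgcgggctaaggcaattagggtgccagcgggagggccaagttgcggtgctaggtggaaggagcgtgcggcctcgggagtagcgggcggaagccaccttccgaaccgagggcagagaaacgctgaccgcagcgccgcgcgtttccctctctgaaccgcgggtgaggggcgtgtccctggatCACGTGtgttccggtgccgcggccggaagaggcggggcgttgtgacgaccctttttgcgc

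A further 6 members held the palindrome within the 50 bases after the start, shown with up to 10 bases on either side because several of them were among the genes higher in cKO, a choice made after their values were seen. The stretches lie at chr10:13193094-13193119 (minus strand), chr11:72441357-72441376 (plus), chr11:3963967-3963992 (plus), chr11:17211540-17211562 (minus), chr10:88826765-88826787 (minus) and chr17:71616222-71616247 (plus), in the order listed.

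Ltv1: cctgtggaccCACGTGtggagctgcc

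Mybbp1a: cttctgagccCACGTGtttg

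Pes1: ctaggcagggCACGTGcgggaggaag

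Pno1: tacaaccacgCACGTGttcctct

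Utp20: gcactaactaCACGTGaggaaaa

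Wdr43: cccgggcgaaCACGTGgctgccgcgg

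The palindrome was thus in the whole window of 7 of 32 members (21.9%), against 8.09% of the 27025 genes with a window and 12.4% of the 7110 of these at 5 CPM or more in a library. In the bases before the start alone it was in 1 of 32 members (3.12%), against 6.86% and 10.3%. Among other ribosome assembly factors, 16 of 79 windows (20.3%) held it. Of the 7 members that held it, Pes1 alone was lower in cKO over all kept cells, and its sign turned when cKO cells were weighted to the WT mix. Nop2, Ltv1, Mybbp1a, Pno1, Utp20 and Wdr43 were higher, as were 35 of all 38 members.

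Over all kept cells the members were mostly higher in cKO. The log2 ratio of cKO over WT lay above 0 in 35 of 38 members, with a median of 0.50 and a range from -0.12 to 0.93, beside a median of -0.07 over the 9142 genes that reached 5 CPM in either library. A log2 ratio of 0.5 or more was reached by 18 members (47.4%), against 8.84% of all genes, and the counting interval lay above 0 in 35 members, against 33.3% of all genes. The members near this line were Nip7 at 0.50 just inside, and Tcof1 and Ebna1bp2, also 0.50 when rounded, just outside. Scaling by the TMM method of edgeR or by median-of-ratios size factors raised the median of the members to 0.60 and that of all genes to 0.03 and 0.04, and leaving mitochondrial and ribosomal protein genes out of the total gave 0.59 and 0.03. When cKO cells were weighted to the WT mix of gates and cell cycle states the members' median was 0.54, and without cells that carried markers of other lineages it was 0.49.

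Of 102 other ribosome assembly factors at the same level, 79 had a log2 ratio above 0 and 12 (11.8%) reached 0.5, with a median of 0.23. The highest were Bysl, a small subunit maturation factor, with 14.3 CPM in WT against 23.9 CPM in cKO (log2 ratio 0.74, 0.61 to 0.88), Nol10 at 0.72 (0.54 to 0.90) and Nle1, a large subunit factor, at 0.69 (0.59 to 0.79). The lowest were Rrp36 at -0.37 (-0.49 to -0.24), Ddx52 at -0.42 (-0.50 to -0.34) and Tex10 at -0.46 (-0.57 to -0.36). Counting intervals lay above 0 for 69 of these 102 factors, against 33.3% of all genes. They lay below 0 for 15, against 4161 of 9142 genes. Ribosome assembly genes outside the 38 thus lay on both sides of 0, with more of them above it.

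**Figure D1:**
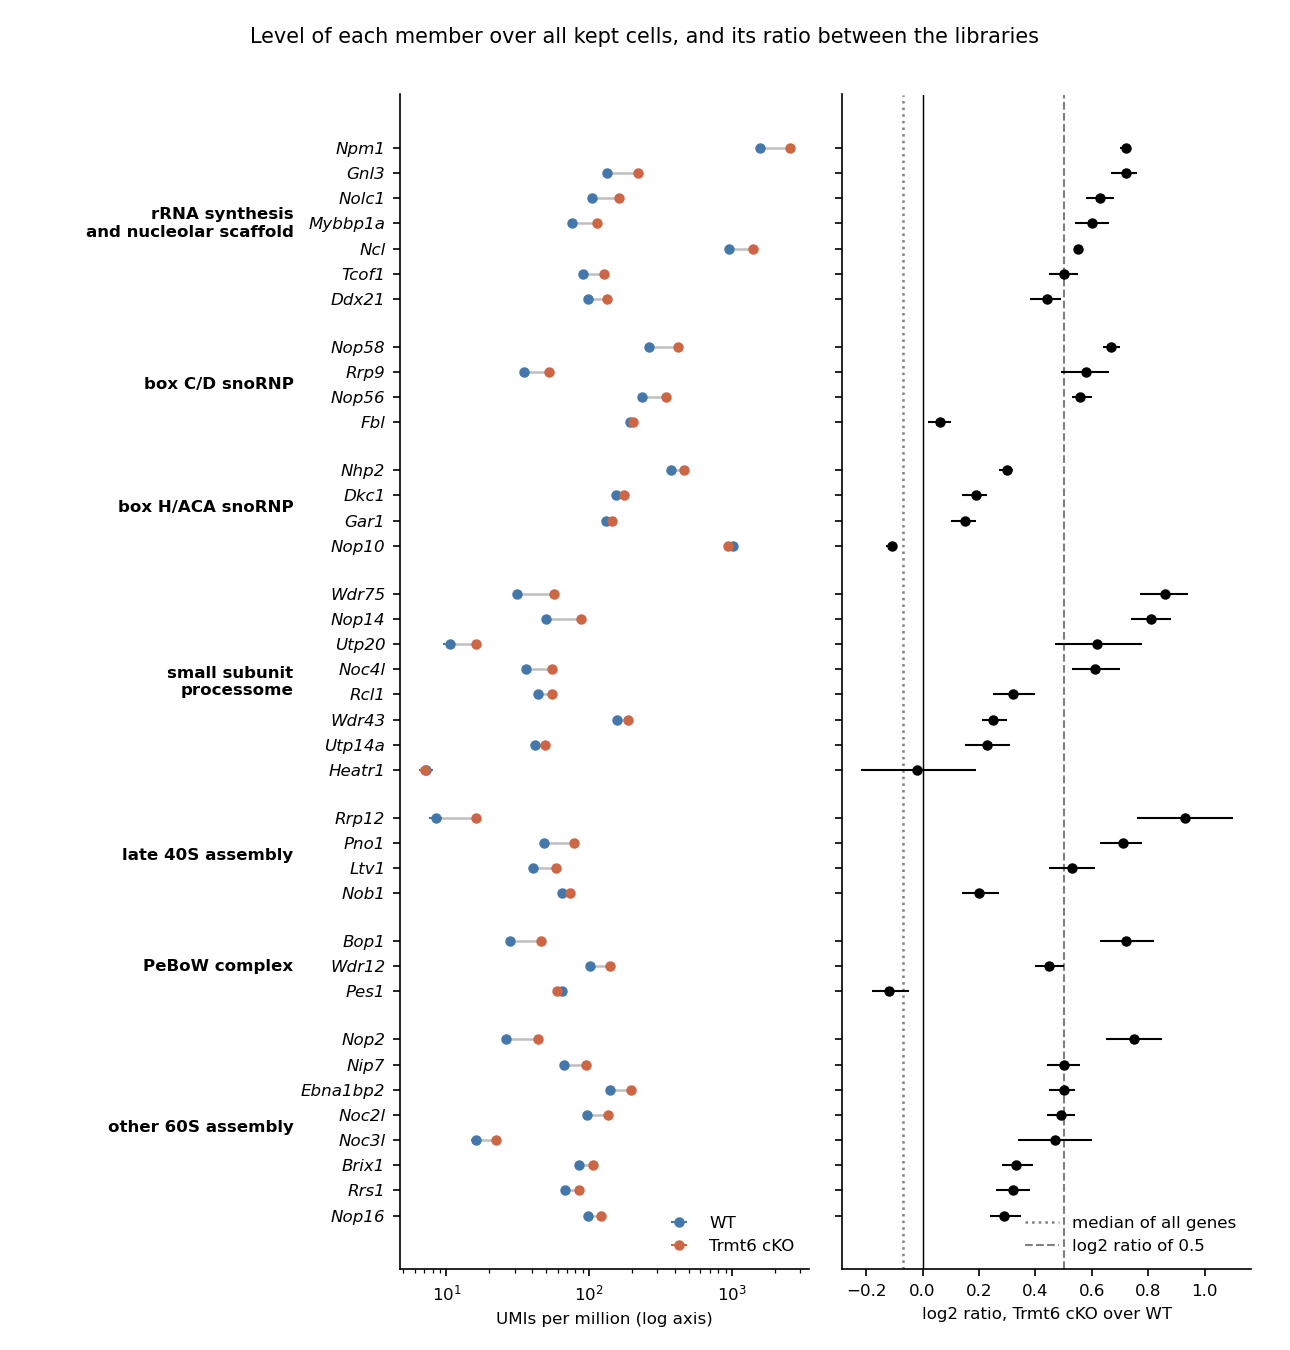
Level of each member in CPM over all kept cells (left, log axis, WT blue, Trmt6 cKO orange) and the log2 ratio of cKO over WT (right), ordered by role, with bars for 95% counting intervals. The 35 members above 0 include all 7 of the scaffold group, whereas Nop10, Pes1 and Heatr1 lie at or below 0.

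The group of rRNA synthesis and nucleolar scaffold factors was higher in cKO as a whole, with counting intervals above 0 in 7 of 7 members, 5 of them at a log2 ratio of 0.5 or more and a median of 0.60. Npm1, which encodes nucleophosmin, the scaffold of the outer nucleolus, had the most UMIs of the 38 members. It measured 1557 CPM (1545 to 1569) in WT against 2558 CPM (2547 to 2569) in cKO (log2 ratio 0.72, 0.70 to 0.73), and lies at chr11:33152287-33163206 on the minus strand of GRCm38. Ncl encodes nucleolin, a binder of pre-rRNA and of rDNA chromatin, and lies at chr1:86344719-86359400 on the minus strand. It measured 951 CPM (941 to 960) in WT against 1395 CPM (1387 to 1403) in cKO (0.55, 0.54 to 0.57). Gnl3, the gene for the nucleolar GTPase nucleostemin, measured 133 CPM (129 to 136) against 218 CPM (215 to 221), a log2 ratio of 0.72 (0.67 to 0.76).

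Remaining scaffold genes lay between 0.44 and 0.63. Nolc1, whose product carries snoRNPs to the nucleolus, measured 104 CPM in WT against 161 CPM in cKO (0.63, 0.58 to 0.68). Mybbp1a, a nucleolar protein that binds MYB and the rRNA gene machinery, measured 75.4 against 114 CPM (0.60, 0.54 to 0.66). Tcof1 encodes treacle, a cofactor of RNA polymerase I, and measured 90.0 against 127 CPM (0.50, 0.45 to 0.55). Ddx21, an RNA helicase of the nucleolus, had the smallest ratio of the group, with 98.1 CPM (95.2 to 101) against 133 CPM (130 to 135) and a log2 ratio of 0.44 (0.38 to 0.49). Npm1 alone made up 23.1% of the members' UMIs in WT and 27.7% in cKO. The summed level of the 38 members was 6735 CPM in WT against 9230 CPM in cKO, a log2 ratio of 0.45, and 0.32 without Ncl and Npm1.

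The box C/D and box H/ACA snoRNPs, which guide ribose methylation and pseudouridylation of rRNA, differed in size of step. Of the 4 box C/D members, 3 reached 0.5. Nop58, a core protein, measured 264 CPM (259 to 269) in WT against 419 CPM (415 to 423) in cKO (0.67, 0.64 to 0.70), and its partner Nop56 233 against 344 CPM (0.56, 0.53 to 0.60). Rrp9, specific to the U3 particle that takes part in precursor cleavage, measured 34.9 against 52.1 CPM (0.58, 0.49 to 0.66). Fbl, which encodes the methyltransferase fibrillarin, was the exception at 193 CPM (189 to 197) against 201 CPM (198 to 204), a log2 ratio of 0.06 (0.02 to 0.10).

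All 4 box H/ACA members lay below 0.5, with a median of 0.17. Nhp2, a small core protein, measured 375 CPM (369 to 381) in WT against 460 CPM (456 to 465) in cKO (0.30, 0.27 to 0.32). Dkc1, which encodes the pseudouridine synthase dyskerin, measured 153 CPM (149 to 156) against 174 CPM (171 to 176), a log2 ratio of 0.19 (0.14 to 0.23), and Gar1 131 CPM (128 to 134) against 145 CPM (142 to 147), a log2 ratio of 0.15 (0.10 to 0.19). Nop10, another small core protein, at chr2:112261926-112263269 on the plus strand, went the other way, with 1018 CPM (1009 to 1028) against 943 CPM (936 to 949) and a log2 ratio of -0.11 (-0.13 to -0.09). It stayed just below 0 under 3 other scalings, at -0.01 to -0.02. Both enzymes of these particles, Fbl and Dkc1, were thus among the 6 members with the lowest ratios.

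The small subunit processome, which folds and cuts the precursor around the small subunit rRNA, held both high and low members. Of 8 members, 4 reached 0.5 and 7 had intervals above 0, with a median of 0.47. Wdr75, of the subcomplex that joins the nascent precursor first, measured 31.2 CPM (29.6 to 33.0) in WT against 56.5 CPM (54.9 to 58.1) in cKO (0.86, 0.77 to 0.94). Nop14 measured 49.6 CPM (47.5 to 51.8) against 87.1 CPM (85.2 to 89.1), a log2 ratio of 0.81 (0.74 to 0.88), and Noc4l, its partner, 35.9 against 55.0 CPM (0.61, 0.53 to 0.70). Utp20 measured 10.5 against 16.1 CPM (0.62, 0.47 to 0.78). Rcl1, a protein of the cleavage step, measured 44.0 against 55.1 CPM (0.32, 0.25 to 0.40), and Utp14a 41.8 against 49.0 CPM (0.23, 0.15 to 0.31). The lower values of this group also included 2 genes of the Wdr75 subcomplex. Wdr43 measured 157 against 188 CPM (0.25, 0.21 to 0.30). Heatr1 was scarce, at 7.15 CPM (6.37 to 8.01) against 7.06 CPM (6.52 to 7.64), and its log2 ratio of -0.02 (-0.22 to 0.19) turned to 0.08 under each of 3 other scalings. Genes of 1 subcomplex therefore ranged from -0.02 to 0.86.

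The late 40S factors, which complete the small subunit, had 3 of 4 members at 0.5 or more and a median of 0.62. Rrp12, whose product takes part in export of the subunits, had the highest ratio of the 38 members. On 354 UMIs in WT and 1404 in cKO it measured 8.44 CPM (7.58 to 9.37) against 16.0 CPM (15.2 to 16.9), a log2 ratio of 0.93 (0.76 to 1.1), and it lies at chr19:41862851-41896173 on the minus strand. Pno1 measured 47.8 against 77.9 CPM (0.71, 0.63 to 0.78) and Ltv1, an export adaptor, 40.3 against 58.2 CPM (0.53, 0.45 to 0.61). Nob1, which encodes the nuclease of the last cut of the small subunit rRNA and binds PNO1, measured 64.0 CPM (61.6 to 66.5) against 73.6 CPM (71.8 to 75.4), a log2 ratio of 0.20 (0.14 to 0.27). Intervals of Pno1 and of its partner Nob1 did not overlap.

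Over all kept cells the 3 genes of the PeBoW complex, which acts on the large subunit precursor, did not move as a unit. Bop1 measured 27.8 CPM (26.2 to 29.4) in WT against 45.9 CPM (44.5 to 47.4) in cKO (0.72, 0.63 to 0.82), and Wdr12 101 against 139 CPM (0.45, 0.40 to 0.50). Pes1 was lower, with 64.5 CPM (62.1 to 67.0) against 59.5 CPM (57.9 to 61.2) and a log2 ratio of -0.12 (-0.18 to -0.05). This shrank to between -0.01 and -0.02 under 3 other scalings and turned to 0.10 when cKO cells were weighted to the WT mix of gates and cell cycle states. In the marker gates described below Pes1 lay above 0, as did Bop1 and Wdr12. Its ratio was 0.30 in the HSC gate, 0.43 in the LMPP gate and 0.27 in the GMP gate, each with an interval that spanned 0.

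Across the 8 other large subunit factors all 8 ratios were positive, with a median of 0.48. Nop2, the gene with the upstream E-box, had the highest, with 26.0 CPM (24.4 to 27.5) in WT against 43.6 CPM (42.2 to 45.0) in cKO (0.75, 0.65 to 0.85). Nop16 had the lowest, with 98.1 CPM (95.1 to 101) against 120 CPM (118 to 122), a log2 ratio of 0.29 (0.24 to 0.35). Nip7 and Ebna1bp2 lay at the line of 0.5, with 66.9 against 94.7 CPM (0.44 to 0.56) and 139 against 196 CPM (0.45 to 0.54). Noc2l and Noc3l, which work as a pair on the precursor, measured 96.1 against 135 CPM (0.49) and 16.1 against 22.3 CPM (0.47). Rrs1 and Brix1 measured 67.8 against 84.6 CPM (0.32) and 84.1 against 106 CPM (0.33). Only Nop2 and Nip7 of these 8 reached 0.5, although every interval lay above 0. None of the 38 members shared an exon on its own strand with another gene of the tables.

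Cells were then gated by markers of stem cells (HSC), lymphoid-primed progenitors (LMPP) and granulocyte-monocyte progenitors (GMP), each cell being thinned to 2000 UMIs and needing UMIs from at least 3 markers of a list. Such a gate is a range of marker counts and not a cell type: in the HSC gate 190 of 246 WT cells and 289 of 401 cKO cells sat at exactly 3 markers, and 683 and 1000 ungated cells were 1 marker short. The HSC gate alone held 100 or more cells in each library, and the LMPP gate, with 612 and 98 cells, and the GMP gate, with 1339 and 83, were added after these numbers were seen. The megakaryocyte gate, with 169 and 6 cells, and the erythroid gate, with 24 and 6, were not compared. Cells in the HSC gate had a median of 4 HSC-list UMIs in WT and 3 in cKO, of 1 and 0 LMPP-list UMIs and of 3 and 1 GMP-list UMIs.

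In the HSC gate the ratios were mostly positive, while 23 of 38 counting intervals spanned 0, against those of 7350 of 9819 genes. Of 38 members 33 lay above 0 and 15 reached 0.5 (39.5%), against 13.6% of all genes, with a median of 0.40 beside -0.15 for all genes. Counting intervals lay above 0 in 15 members, against 9.44% of all genes, and in none below 0, against 1542 of 9819 genes. Npm1 measured 1211 CPM (1135 to 1291) in WT against 2135 CPM (2083 to 2188) in cKO (0.82, 0.72 to 0.92), and Ncl 798 against 1094 CPM (0.45, 0.33 to 0.58). Nolc1 measured 68.7 against 126 CPM (0.86, 0.45 to 1.32), and Wdr12 51.8 against 103 CPM (0.97, 0.51 to 1.5). Npm1 and Ncl, with the most UMIs, had the narrowest of these intervals. Heatr1 and Utp20 reached 5 CPM in cKO alone, on 2 WT UMIs each, so they could enter only by being higher there. Without this pair 13 of 36 members reached 0.5, 14 had intervals above 0 and the median was 0.35. The shares of all genes given above also include genes at 5 CPM in 1 library alone, so they do not match these counts. Utp20 had 46 UMIs in cKO and a log2 ratio of 2.27 (0.65 to 5.67), and Heatr1 had 21 UMIs and 1.16 (-0.58 to 4.59).

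Intervals in this gate were wide for scarce members. Rrp12 was at 0.14 (-1.08 to 1.79) on 6 WT and 27 cKO UMIs. Nop14 was at 0.19 (-0.28 to 0.70), below its interval over all cells of 0.74 to 0.88. Of the box H/ACA genes, Nhp2 at 0.64 (0.41 to 0.88) and Nop10 at 0.18 (0.05 to 0.31) lay above their intervals over all cells, and Dkc1 was at 0.58 (0.23 to 0.97). Noc3l at -0.36, Wdr43 at -0.23, Rcl1 at -0.19, Ltv1 at -0.16 and Nob1 at -0.15 (0.01 with TMM scaling) were the 5 members below 0, all with intervals that spanned 0. Among 103 other assembly factors in this gate, 8 (7.77%) reached 0.5, against 13.6% of all genes, and the median was 0.03 beside -0.15.

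The HSC result depended on how strictly the gate was drawn. With at least 4 markers, which left 56 WT and 112 cKO cells, the median of the members was 0.02 and 6 of 37 reached 0.5, while the median of all genes was -0.28 and 20.5% of them reached it. With at least 2 markers, 783 and 1356 cells, the median was 0.42. In the G1-scored cells of the gate it was 0.33, with 10 members (26.3%) at 0.5 or more, against 14.8% of all genes and a median of -0.13. Cell cycle state moved with the genotype, as 83.3% of WT and 58.6% of cKO cells of the gate were scored G1. Within the gate the GMP list summed to 1485 CPM in WT and 546 CPM in cKO, 7 of 10 of its genes being lower and 2 at 0 in cKO, the neutrophil list to 389 and 2.02 CPM, and the immediate early list to 9766 and 1660 CPM, 18 of 20 being lower. The megakaryocyte list summed to 245 and 81.6 CPM, 8 of 12 being lower, the LMPP list to 446 and 249 CPM, 5 of 10 being lower, and the basophil or mast cell list to 44.0 and 2.70 CPM, 3 of 8 being lower. The HSC list itself summed to 1645 and 1074 CPM there, 6 of 11 genes being lower and 1 higher, with Hlf at 424 and 203 CPM and Procr at 114 and 118 CPM. The part of these differences in the members' ratios was not tested.

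Members in the LMPP and GMP gates, and in the cells that passed no gate, were also mostly higher in cKO. In the LMPP gate 20 of 37 members reached 0.5 (54.1%), against 18.2% of all genes, and 22 had intervals above 0, against 11.3%, with a median of 0.51 beside -0.03. Nop2 had the highest ratio there, from 43 UMIs in WT and 42 in cKO, with 16.6 against 55.8 CPM (1.75, 1.1 to 2.40). Bop1 followed with 17.7 against 50.5 CPM (1.51, 0.85 to 2.16), then Utp20 at 1.33 (0.17 to 2.43) on 18 and 13 UMIs and Pno1 with 34.7 against 73.1 CPM (1.08, 0.57 to 1.58). Heatr1 was below the level tabulated, with 10 UMIs in WT and 1 in cKO. The processome and late 40S groups had medians of 0.76 and 0.71 in this gate, whereas the box H/ACA group had 0.08. Of the 4 late 40S intervals, 1 lay above 0. In the HSC gate the medians of these groups were 0.39, -0.00 and 0.38 in the same order. The cells of this gate also differed otherwise, as 20.6% in WT and 43.9% in cKO were scored S. The GMP list summed to 1856 CPM in WT and 593 CPM in cKO, 5 of 10 of its genes being lower and 3 at 0 in cKO, and the B cell list to 81.2 and 435 CPM, 5 of 8 being higher. The neutrophil list summed to 239 and 1.33 CPM, 4 of 10 being lower, with 3 at 0 in WT and 9 at 0 in cKO. The immediate early list summed to 7071 and 1822 CPM, 17 of 20 being lower, and the part of these shifts was not tested.

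In the GMP gate 18 of 38 members reached 0.5, against 15.2% of all genes, and 28 had intervals above 0, against 16.0%, with a median of 0.47 beside 0.01. Rrp12 was at 1.05 (0.43 to 1.60), Noc4l, with 44.6 against 89.7 CPM, at 1.01 (0.72 to 1.29) and Wdr12, with 115 against 212 CPM, at 0.88 (0.69 to 1.06). Nop10 went from 1204 CPM in WT to 901 CPM in cKO (-0.42, -0.50 to -0.34) and was the 1 member with an interval below 0, against 1380 of 8728 genes. Cells of this gate had medians of 8771 UMIs in WT and 17732 in cKO, and their GMP list summed to 18654 and 10518 CPM, 9 of 10 of its genes being lower and 1 higher in cKO. The neutrophil list summed to 2999 and 119 CPM there, 7 of 10 being lower and 6 at 0 in cKO, and the immediate early list to 3155 and 1069 CPM, 16 of 20 being lower. The part of depth and of these lists was not tested.

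In the ungated cells, 5452 in WT and 7638 in cKO, 22 members reached 0.5, against 9.16% of all genes, and 35 had intervals above 0, against 29.8%, with a median of 0.55 beside -0.11. Rrp12 was highest again, with 7.34 against 16.3 CPM (1.14, 0.92 to 1.38), followed by Wdr75, with 30.5 against 57.4 CPM (0.91, 0.80 to 1.03), and then by Nop14 at 0.87 (0.78 to 0.96) and Pno1 at 0.87 (0.77 to 0.96). The lowest were Nop10 at -0.03 and Pes1 at -0.01, which became 0.13 and 0.15 with TMM scaling. In these cells the GMP list summed to 1971 CPM in WT and 602 CPM in cKO, with all 10 genes lower, the neutrophil list to 240 and 6.44 CPM, 9 of 10 being lower and 2 at 0 in cKO, and the immediate early list to 7009 and 1261 CPM, with all 20 lower. The megakaryocyte list summed to 173 and 71.8 CPM, 9 of 12 being lower, the LMPP list to 583 and 228 CPM, 6 of 10 being lower, and the basophil or mast cell list to 117 and 20.1 CPM, 6 of 8 being lower. The part of these lists in the ratios was not tested.

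Taking all kept cells, the 4 sets of gated or ungated cells and the 3 cell cycle states as 8 overlapping classes, 36 members, all but Heatr1 and Utp20, had at least 5 CPM in both libraries throughout. Of these, 5 reached 0.5 in each class, against 1.17% of the 6980 genes with such levels, namely Npm1, Wdr75, Noc4l, Pno1 and Bop1. In the HSC gate the intervals of Wdr75, Noc4l and Bop1 spanned 0. Another 8 members reached it in none, against 68.8% of those genes, namely Fbl, Gar1, Nop10, Wdr43, Utp14a, Nob1, Pes1 and Nop16. Intervals lay above 0 in all 8 classes for 10 of the 36, against 3.78% of those genes, and below 0 in at least 1 class for 3, Fbl, Nop10 and Pes1, against 55.7%. The 10 were Npm1, Ncl, Nolc1, Mybbp1a, Gnl3, Nop56, Nop58, Pno1, Wdr12 and Noc2l. With other scalings 1 or 2 members changed sign in each class, all of them within 0.15 of 0.

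**Figure D2:**
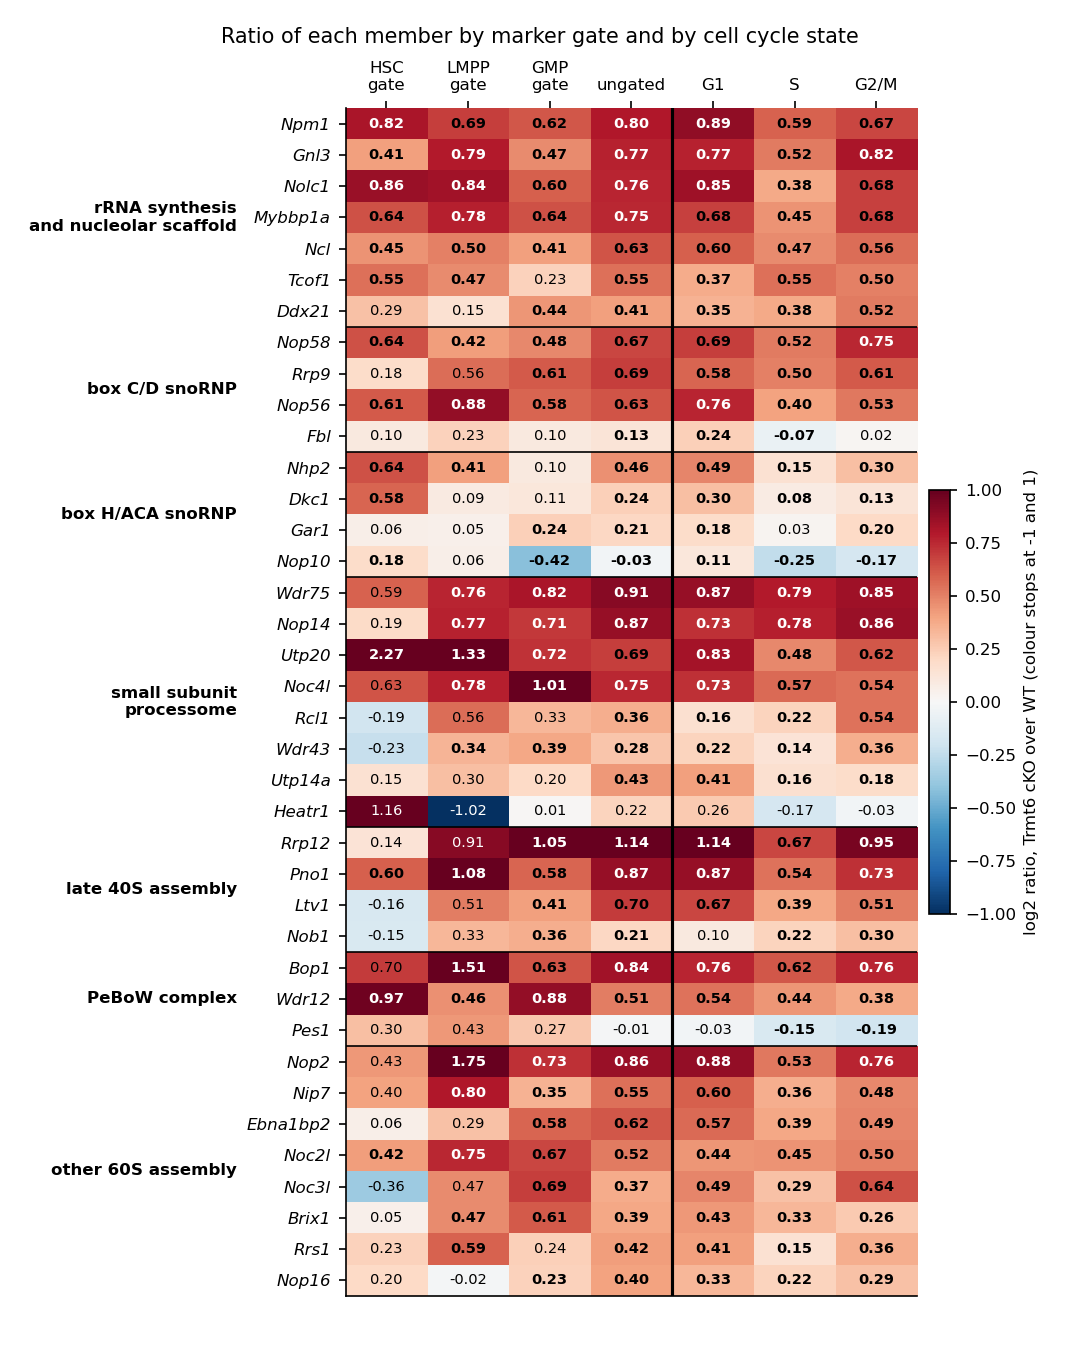
Log2 ratio of cKO over WT for each member (rows, by role) in the marker gates, in ungated cells and in the cell cycle states (columns), red for higher in cKO and bold where the counting interval excludes 0. The Npm1 row is red throughout, from 0.59 in S to 0.89 in G1, whereas Nop10 is at -0.42 in the GMP gate and 0.18 in the HSC gate.

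Within each library most members were higher in the GMP gate than in the HSC gate. In WT the GMP gate lay above the HSC gate by a median log2 ratio of 0.46, with intervals above 0 in 20 of 38 members, against 14.6% of all genes, and in cKO by 0.59, with intervals above 0 in 30, against 17.3%. The medians over all genes were -0.28 and -0.07. The 1 member with an interval below 0 was Noc3l in WT, with 13.6 CPM in the GMP gate and 28.5 CPM in the HSC gate (-1.09, -1.71 to -0.35). Nhp2 measured 482 CPM in the GMP gate and 225 CPM in the HSC gate of WT (1.09, 0.88 to 1.32), and 515 and 352 CPM in cKO (0.55, 0.41 to 0.69). Pes1 stood at 79.3 and 40.2 CPM in WT and 95.3 and 50.2 CPM in cKO. Nop10 had a difference of this kind in WT, at 0.63 (0.52 to 0.75), but was at 0.04 (-0.06 to 0.13) in cKO. The share of cells scored G1 was 83.3% in the HSC gate and 16.0% in the GMP gate of WT, and 58.6% and 18.1% in cKO, and its part in these ratios was not tested. Between the LMPP and HSC gates the medians were -0.02 in WT and 0.15 in cKO, and members lay on both sides. In WT 6 of 37 intervals lay above 0, against 8.47% of all genes, and 3 below, Wdr12 being at 0.89 (0.42 to 1.42) and Noc3l at -0.98. In cKO 12 of 38 lay above, against 10.7%, and 2 below. The share of all genes with intervals below 0 was not taken between gates, so the counts below 0 stand without a comparison. The medians over all genes for LMPP over HSC were -0.17 in WT and -0.04 in cKO.

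Cell cycle states were called from S and G2/M genes on cells thinned to 2000 UMIs. WT cells were 43.8% G1, 29.0% S and 27.2% G2/M, and cKO cells 36.2%, 39.8% and 24%. Most members were higher in cKO within each state. In G1 20 of 38 reached a log2 ratio of 0.5, against 9.85% of all genes, with a median of 0.56. In S 12 reached it, against 9.48%, with a median of 0.39, and in G2/M 22 did, against 11.0%, with a median of 0.51. The medians of all genes were -0.13, -0.03 and -0.05 in the same order. In G1 Npm1 measured 1327 CPM in WT against 2466 CPM in cKO, in S 1812 against 2736 CPM and in G2/M 1511 against 2397 CPM. The level of Npm1 in G1-scored cKO cells thus lay above that in S-scored WT cells. All 7 scaffold genes reached 0.5 in G2/M, 5 in G1 and 3 in S, while none of the 4 box H/ACA genes did in any state. Nop10 was lower in cKO in S, with 1228 against 1034 CPM (-0.25, -0.27 to -0.22), and in G2/M, with 990 against 877 CPM (-0.17, -0.20 to -0.14). In G1 it was higher, with 814 against 876 CPM (0.11, 0.07 to 0.14). Pes1 was lower in S (-0.15, -0.26 to -0.04) and in G2/M (-0.19, -0.31 to -0.07), and its value of -0.03 in G1 turned to 0.13 with TMM scaling.

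Members were higher in S than in G1 in both libraries, by more in WT. That contrast between libraries comes from the same summed UMIs as the ratios by state above. It restates that the ratio of cKO over WT was mostly larger in G1 than in S. In WT the median log2 ratio of S over G1 was 0.43, with intervals above 0 in 34 of 38, against 24.3% of all genes. In cKO the median was 0.19, with intervals above 0 in 33, against 26.6% of all genes. The S over G1 ratio was larger in WT in 32 of 38 members (84.2%), against 39.1% of all genes, and in 17 of them the WT interval lay wholly above the cKO interval, against 10.5% of all genes. Nolc1 went from 76.8 CPM in G1 to 147 CPM in S in WT (0.94, 0.83 to 1.06) and from 138 to 192 CPM in cKO (0.48, 0.42 to 0.53). Nhp2 was at 0.82 in WT and 0.48 in cKO, Nop56 at 0.77 and 0.40, and Npm1 at 0.45 and 0.15.

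In 6 members the ratio of S over G1 was not larger in WT, namely Tcof1, Ddx21, Nop14, Rcl1, Nob1 and Noc2l. Nob1 was lower in S than in G1 in both libraries, at -0.32 (-0.46 to -0.18) in WT and -0.20 (-0.29 to -0.12) in cKO. Noc3l was at -0.01 (-0.29 to 0.26) in WT and lower in S in cKO, at -0.21 (-0.37 to -0.06). Ddx21 was at 0.07 and 0.10, and Rcl1 at 0.11 and 0.16, both with WT intervals that spanned 0. Tcof1 was higher in S in both libraries, at 0.22 (0.10 to 0.34) in WT and 0.39 (0.33 to 0.46) in cKO. Median UMIs per cell were 3054 in G1 and 5320 in S in WT, and 7779 and 10822 in cKO, and the part of depth in these ratios was not tested.

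The states also held different mixes of gated cells. GMP-gated cells made up 6.15% of G1 and 23.0% of S in WT, and 0.495% and 1.23% in cKO. In the ungated cells alone, a comparison added after seeing the data, the medians of S over G1 were 0.33 in WT and 0.17 in cKO. There 31 of 38 members had the larger ratio in WT, against 40.5% of all genes, and in 10 rather than 17 of them the WT interval lay wholly above the cKO interval, against 7.75%. Between G2/M and G1 members lay on both sides, with medians of 0.08 in WT and -0.00 in cKO. In WT 16 intervals lay above 0, against 22.9% of all genes, and 7 below, against 41.5%, and in cKO 10 lay above, against 22.6%, and 13 below, against 32.8%. The medians of all genes were -0.14 and -0.05. In the ungated cells the medians of G2/M over G1 were -0.01 and -0.04.

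**Figure D3:**
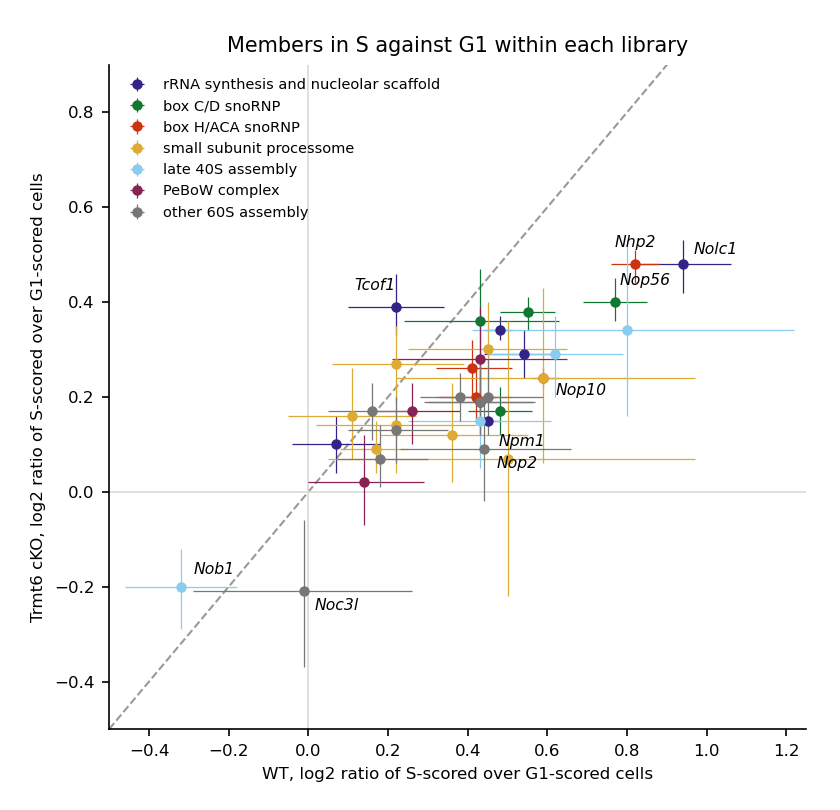
Log2 ratio of S-scored over G1-scored cells for each member in WT (horizontal axis) and Trmt6 cKO (vertical axis), coloured by role, with bars for 95% counting intervals and a dashed line where both libraries are equal. Of 38 members, 32 lie below the line, Nolc1 and Nhp2 farthest to the right at 0.94 and 0.82 in WT, and Nob1 is below 0 in both.

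Single cells gave the same order as the sums. In cells thinned to 2000 UMIs, so that depth was equal, the members summed to a median of 12 UMIs (quartiles 9 and 16) in 7946 WT cells and 17 (13 and 21) in 8376 cKO cells. Without Ncl and Npm1 the medians were 7 and 10. A median of 8 members was detected per cell in WT and of 9 in cKO, and 0.541% of WT and 0.107% of cKO cells had no UMI of the other 36 members. In the HSC gate the sums had medians of 10 and 14, in the LMPP gate of 10 and 14 and in the GMP gate of 15 and 20. In G1 they were 11 and 15, in S 15 and 19 and in G2/M 11 and 16. G1-scored cKO cells and S-scored WT cells had the same median, but without Ncl and Npm1 theirs were 9 and 9.50. The ranges of cells overlapped widely in every class.

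**Figure D4:**
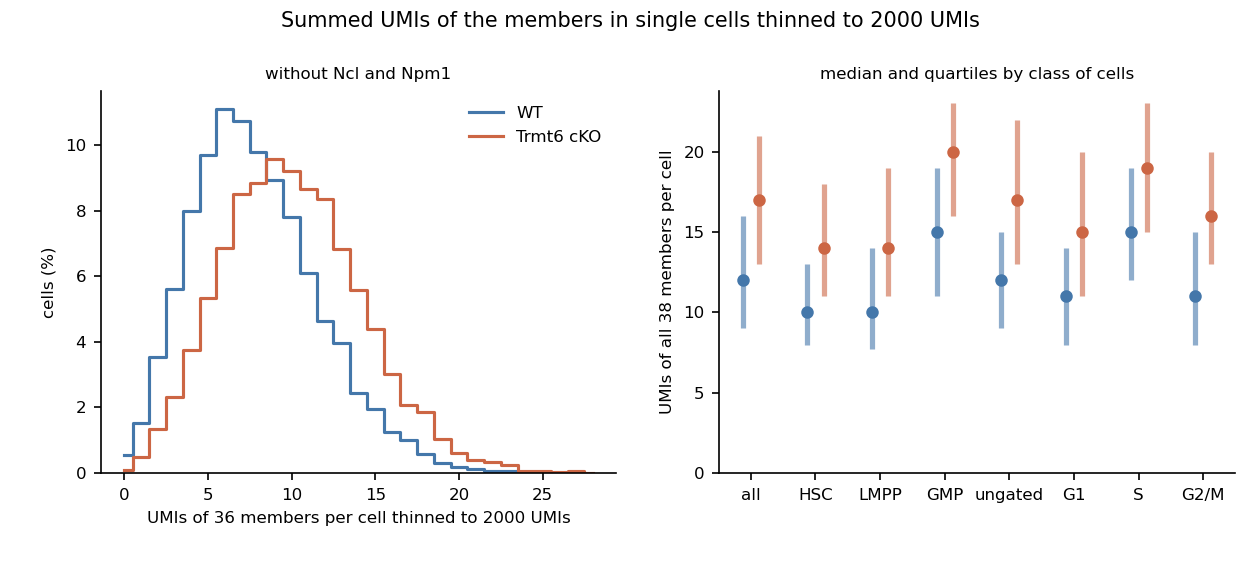
Left, share of cells by their summed UMIs of 36 members, without Ncl and Npm1, in cells thinned to 2000 UMIs (WT blue, Trmt6 cKO orange), and right, median (point) and quartiles (bar) of the sum over all 38 members by class of cells. The cKO curve is shifted to the right, with a median of 10 beside 7 in WT, and the cKO median lies above the WT median in each class.

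Myc, whose product binds the E-box, was compared over all cells and in the 3 gates. Over all cells it stood at 158 CPM in WT against 127 CPM in cKO (-0.31, -0.36 to -0.27), and in the HSC gate at 168 against 114 CPM (-0.57, -0.86 to -0.26). In the LMPP gate its log2 ratio was 0.01 (-0.30 to 0.29), and in the GMP gate it stood at 143 against 179 CPM (0.33, 0.13 to 0.52). Its ratio thus lay below 0 over all cells and in the HSC gate and above 0 in the GMP gate.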

How the data were processed

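Each deposited table gives raw UMI counts of genes in barcodes. According to the submitters' processing notes the authors ran Cell Ranger 6.0.0, with GRCm38 as the genome. The labels name the version 2 chemistry and the methods of the study version 3. The members, gene lists and gates were chosen with earlier results of these data known. Each library kept cells by the limits of the study: over 200 and under 4000 (WT) or 4500 (cKO) genes, under 10% (WT) or 5% (cKO) mitochondrial and under 5% hemoglobin UMIs. These passed 8763 and 9151 of 8869 and 9260 barcodes, and 616 and 670 likely doublets, the nearest to simulated pairs at 0.8% per 1000 barcodes, were then removed. The kept cells held 41947761 and 87491916 UMIs. Gates and cell cycle states used cells thinned to 2000 UMIs, excluding 201 cells of WT and 105 of cKO below that depth. A gate took cells with at least 3 markers of its list and more than of any other list, the GMP list also needing 10 and the neutrophil list 40 UMIs. Cells with S and G2/M scores at or below 0 were G1. Levels are summed UMIs per 1000000 UMIs (CPM) with exact Poisson intervals, not scaled to gene length. Ratios used 0.5 added counts and exact conditional binomial intervals, tested on simulated data. Genes that reached 5 CPM in either library were tabulated, and a fold was called from a log2 ratio of 0.5, since 1 library per genotype allows no test. All members were accounted for, and intervals were given for the 6 highest and 6 lowest ratios, the 4 highest WT levels and the extremes of each role. Python 3.11.15, scipy 1.17.1 and edgeR 4.0.16 (TMM factors only) were used. Alternatives varied the scaling, doublets, limits, markers, phase scoring and minimum level. Describing the LMPP, GMP and ungated cells, and members that reached 5 CPM in both libraries, was added after seeing the data. Promoters came from RefSeq and gene positions from GENCODE M21.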

Additional observations from a re-analysis of the deposited data

Results flagged for a closer look

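Nop10 and Fbl moved in opposite directions between classes of cells, with counting intervals on either side of 0; none of these differences was tested across animals. Nop10 had a log2 ratio of cKO over WT of 0.18 (0.05 to 0.31) in the HSC gate and -0.42 (-0.50 to -0.34) in the GMP gate, and kept both signs under the 3 other scalings. By cell cycle state Nop10 was at 0.11 (0.07 to 0.14) in G1, -0.25 (-0.27 to -0.22) in S and -0.17 (-0.20 to -0.14) in G2/M, also with the same signs under those scalings. Fbl was at 0.24 (0.16 to 0.31) in G1 and -0.07 (-0.13 to -0.01) in S, where another scaling brought it to 0.00.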

How the results depend on the processing

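Medians under an alternative were set against the counting interval of the middle-ranked members, which is not an interval of the median itself. Of 94 such medians, 81 stayed within it, 9 moved out of it and 4 changed sign. That interval ran from 0.02 to 0.83 in the HSC gate and from -0.14 to 1.11 in the LMPP gate, so staying within it is a weak check there. Of 74 counts of members at a log2 ratio of 0.5 or more, 73 stayed within 1.5 times the count reported. Scaling by TMM or by median-of-ratios size factors raised the members' median from 0.50 to 0.60 over all cells, from 0.55 to 0.71 in ungated cells and from 0.56 to 0.72 in G1, while leaving mitochondrial and ribosomal protein genes out of the total raised them to 0.59, 0.63 and 0.66. Over all genes and all cells, the median-of-ratios factors raised the share above 0 from 43.0% to 53.5% and the share at 0.5 or more from 8.84% to 12.8%. The latter share rose from 9.16% to 15.7% in ungated cells and from 9.85% to 17.0% in G1. The members at 0.5 or more rose there from 22 to 30 and from 20 to 28. Requiring 4 markers in the HSC gate brought the members at a log2 ratio of 0.5 or more from 15 of 38 to 6 of 37. On these fewer cells the median fell from 0.40 to 0.02, which still counted as within that wide interval. The cKO median of G2/M over G1, -0.00, became 0.01 with phases scored in each library on its own or on all UMIs, and 0.04 with each cell scaled before averaging, and the WT median, 0.08, became -0.01 in the ungated cells alone. No paired analysis was possible because each genotype had 1 library, so leaving out a replicate was not possible either. In the HSC gate the 771938 WT UMIs left 23 of 38 intervals across 0, against those of 7350 of 9819 genes.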
